A study of Homo sapiens with 24 samples.

Results

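Matrix metalloproteinases (MMPs) are zinc-dependent enzymes that cut proteins of the extracellular matrix, and tissue inhibitors of metalloproteinases (TIMPs) are the secreted proteins that block them. The 10 genes described here are the collagenase MMP1, the gelatinases MMP2 and MMP9, the stromelysins MMP3 and MMP10, the matrilysin MMP7, the membrane-bound MMP14 and the inhibitors TIMP1, TIMP2 and TIMP3. They were taken by name from the 29744 genes of the count table, and the list was selected on the fold changes of MMP1 against control, which had been seen to go in opposite directions in the 2 cell lines studied. All differences of MMP1 are therefore given as a description, without a test.

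The cell lines, HCC1806 and MDA-MB-231, are both established triple-negative breast cancer lines. Each line was grown as its aneuploid parental population (control) and as 3 whole-genome-doubled populations, made by cell fusion, by mitotic slippage or by failure of cytokinesis, with 3 biological replicates in each of the 8 groups. Doubled cells had been isolated by flow sorting and expanded. Nothing states that the replicates of a group came from separately derived populations, so a route and the history of a population cannot be told apart. RNA was collected after 48 hours of growth and read by 3′ tag sequencing, which counts the ends of polyadenylated transcripts. Levels are given as CPM, counts scaled to a common library total, with trimmed mean of M values (TMM) factors over all 24 libraries, so they are relative to the other RNA of the library and say nothing of RNA per cell. In bulk libraries, fewer cells that express a gene and less RNA per cell cannot be told apart.

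MMPs are made as inactive proenzymes, in which a cysteine of the propeptide (the cysteine switch) occupies the catalytic zinc until the propeptide is removed. Plasmin, other MMPs and proprotein convertases carry out this removal, and MMP14 together with TIMP2 forms the complex that activates proMMP2 at the cell surface. TIMPs bind the active site through their amino terminus, and many MMP genes are induced through AP-1 and ETS factors by cytokines and growth factors. MMP1 is known for cutting interstitial collagens and for its expression in invasive breast cancer cells.

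The sequences that carry these functions show how the members relate, and they are given 5′ to 3′ on the coding strand of GRCh38. The cysteine switch of MMP1 lies in exon 2 at chr11:102797318-102797338 on the minus strand, with the cysteine codon in capitals.
MMP1 cysteine switch: cccagaTGTggagtgcctgat
The zinc-binding sites of the 4 MMPs with more than a few counts have their 3 histidine codons in capitals. They lie at chr11:102795549-102795581 (minus strand, exon 5) for MMP1, chr16:55491827-55491859 (plus strand, exon 8) for MMP2, chr11:102776718-102776750 (minus strand, exon 5) for MMP10 and chr14:22843283-22843315 (plus strand, exon 5) for MMP14.
MMP1 zinc site: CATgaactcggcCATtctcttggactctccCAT
MMP2 zinc site: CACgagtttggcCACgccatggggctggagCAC
MMP10 zinc site: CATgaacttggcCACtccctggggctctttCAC
MMP14 zinc site: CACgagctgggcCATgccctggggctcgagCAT
Of the 33 bases of the MMP1 site, 25 were the same in MMP10, 24 in MMP3, 24 in MMP7, 23 in MMP14, 21 in MMP9 and 18 in MMP2. The amino termini of the mature TIMPs, which enter the MMP active site, have 2 cysteine codons in capitals. They lie at chrX:47583485-47583511 (plus strand, exon 2) for TIMP1, chr17:78924984-78925010 (minus strand, exon 1) for TIMP2 and chr22:32802071-32802097 (plus strand, exon 1) for TIMP3.
TIMP1 amino terminus: TGCaccTGTgtcccaccccacccacag
TIMP2 amino terminus: TGCagcTGCtccccggtgcacccgcaa
TIMP3 amino terminus: TGCacaTGCtcgcccagccacccccag
TIMP3 shared 18 of these 27 bases with TIMP1 and 18 with TIMP2. These sites lie upstream of the transcript ends that 3′ tags read. In the last 400 bases of each member's transcript, no stretch of 31 bases was shared with another gene except in MMP9, where 58 of 370 such stretches were.

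Of the MMP genes, 4 lie together on chromosome 11 (RefSeq, GRCh38.p14): MMP7 at 102520508-102530747, MMP10 at 102770502-102780628, MMP1 at 102789919-102798160 and MMP3 at 102835801-102843609, all on the minus strand. MMP2 lies at chr16:55478830-55506691, MMP9 at chr20:46008908-46016561, MMP14 at chr14:22836585-22847758, TIMP1 at chrX:47582436-47586789, TIMP2 at chr17:78852977-78925387 and TIMP3 at chr22:32801705-32863041. WTAPP1 overlaps MMP1, MMP3 and MMP10 on the other strand and had no count in any library. SYN1 over TIMP1 had at most 3 counts in a library and SYN3 over TIMP3 at most 1, so few reads were assigned to these overlapping genes, while the strand setting of the counting is not given in the sources used here. On the same strand, CEP295NL overlaps TIMP2 and AC007336.3 overlaps MMP2, and their counts are not reported here. They share stretches of 31 bases with these members, but none in the last 400 bases of the member's transcript.

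The RefSeq promoter table held 5 of the 10 members, without MMP1. Promoters of 250 bases before the start are shown for MMP10, the neighbour of MMP1 in the cluster, and for TIMP3, the inhibitor that passed the test most often. Capitals mark matches on either strand to 4 motifs: AP-1 (TGANTCA, in 6.57% of 35116 promoters of this length), ETS (AGGAAG, in 28.7%), the GC box (GGGCGG, in 42.6%) and the TATA box (TATAAA, in 10.7%). The MMP10 promoter lies at chr11:102780629-102780878 on the minus strand and the TIMP3 promoter at chr22:32801455-32801704 on the plus strand.
MMP10 promoter: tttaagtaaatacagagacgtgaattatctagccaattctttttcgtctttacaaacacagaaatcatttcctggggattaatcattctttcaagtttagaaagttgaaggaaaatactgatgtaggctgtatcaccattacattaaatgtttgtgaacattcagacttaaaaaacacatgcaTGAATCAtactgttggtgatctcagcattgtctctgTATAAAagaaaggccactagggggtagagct
TIMP3 promoter: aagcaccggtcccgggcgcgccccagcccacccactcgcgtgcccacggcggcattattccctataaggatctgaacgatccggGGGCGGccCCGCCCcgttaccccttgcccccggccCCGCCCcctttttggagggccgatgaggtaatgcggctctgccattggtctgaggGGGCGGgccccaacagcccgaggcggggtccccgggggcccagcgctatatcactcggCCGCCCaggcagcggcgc
The MMP10 promoter held an AP-1 match 67 to 61 bases before the start and a TATA box 31 to 26 bases before it. MMP7 held an AP-1 match at the same distance, 2 ETS matches and a TATA box, whereas TIMP3 held 5 GC boxes and none of the other motifs. TIMP1 held 1 ETS match and 2 GC boxes, and MMP14 held 1 GC box. No motif match overlapped another, and a match is a description of the letters only.

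Libraries held between 3060622 and 4030297 counts in HCC1806 and between 2455707 and 3837957 in MDA-MB-231. After a filter on low counts, 7 members could be tested in HCC1806 (all but MMP3, MMP7 and MMP9) and 5 in MDA-MB-231 (MMP1, MMP14 and the 3 TIMPs), among 11467 and 11424 genes. MMP1 passed the filter in MDA-MB-231 only through its level in the doubled populations. The label of each line was checked against 5 marker genes: the summed level of KRT5, KRT14, KRT6A, CDH1 and EPCAM was 1259 to 1562 CPM in HCC1806 libraries and 10.2 to 19.1 CPM in MDA-MB-231 libraries. That of VIM, ZEB1, AXL, CDH11 and SPARC was 3234 to 3627 CPM in MDA-MB-231 and 10.8 to 20.4 CPM in HCC1806. Within HCC1806 the basal keratin KRT14 was called lower in fusion (-0.59), slippage (-0.63) and cytokinesis failure (-1.80), KRT6A lower in slippage (-0.52) and cytokinesis failure (-1.36), EPCAM lower in fusion (-0.14) and KRT5 higher in cytokinesis failure (0.16), and their part in the results was not tested. Fibroblast markers, which could accompany MMP and TIMP transcripts in a mixed sample, summed to 1.74 to 6.69 CPM over 8 genes in every library. The immune list of 6 genes summed to 26.3 to 40.1 CPM in HCC1806, to 67.3 to 74.8 CPM in MDA-MB-231 controls and to 89.2 to 118 CPM in MDA-MB-231 doubled populations. Most of that sum was CD68, a lysosomal gene that tumour cells also express, with CD163 at 0 in every group and ITGAM at 0 in 7 of 8 groups. The 4 endothelial markers summed to at most 0.543 CPM in HCC1806. In MDA-MB-231 they summed to 2.34 to 3.57 CPM in control, 4.69 to 7.68 in fusion, 2.59 to 6.86 in slippage and 5.05 to 7.62 in cytokinesis failure, where PECAM1 was called higher (1.49, edgeR adjusted p = 0.00822), with CDH5 at 0 in every group of the line, and their part in the results was not tested. CD68 was called higher in all 3 doubled populations of MDA-MB-231 (log2 0.48, 0.62 and 0.65 for fusion, slippage and cytokinesis failure) and lower in the cytokinesis failure population of HCC1806 (-0.45), and its part in the results was not tested. MDA-MB-231 slippage replicate 3 and cytokinesis failure replicate 1 differed more from their groups than other libraries did, and values without both are given where they change a call.

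MMP1 was abundant in HCC1806 and close to absent in the MDA-MB-231 parental line. In the slippage and cytokinesis failure populations it was lower than control in HCC1806 and higher than control in MDA-MB-231, so the levels of the lines lay nearer to each other. In HCC1806 the level was 221, 262 and 255 CPM in the control replicates and 281, 288 and 286 CPM in the fusion replicates. It was 119, 125 and 128 CPM in slippage and 39.9, 54.6 and 59.5 CPM in cytokinesis failure. No doubled group overlapped the HCC1806 control: fusion lay just above it, slippage below it and cytokinesis failure lowest. The fold change against control was 0.21 ± 0.072 on the log2 scale in fusion (± SE, 3 against 3 libraries), -0.99 ± 0.079 in slippage and -2.26 ± 0.089 in cytokinesis failure, the last being a 4.79-fold lower level.

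In MDA-MB-231 the control libraries held 4, 5 and 5 MMP1 counts, or 1.10, 1.49 and 1.30 CPM. The fusion libraries held 65, 65 and 59 counts (20.3, 18.9 and 17.4 CPM), the slippage libraries 27, 14 and 20 (7.77, 3.48 and 5.72 CPM) and the cytokinesis failure libraries 15, 14 and 16 (5.83, 3.44 and 4.11 CPM). All 9 doubled libraries lay above all 3 controls, fusion stood apart at the top, and slippage and cytokinesis failure overlapped. Against control the log2 fold change was 3.84 ± 0.30 in fusion (14.3-fold), 2.09 ± 0.38 in slippage (4.25-fold) and 1.71 ± 0.40 in cytokinesis failure (3.27-fold). The direction thus differed between the lines for slippage and cytokinesis failure, while in fusion MMP1 was higher than control in both lines.

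Over the 8 groups the mean MMP1 level ran from HCC1806 fusion (285 ± 3.74 CPM, SD, n = 3) through HCC1806 control (246 ± 22), slippage (124 ± 4.92) and cytokinesis failure (51.3 ± 10.2) to MDA-MB-231 fusion (18.9 ± 1.45), slippage (5.66 ± 2.14), cytokinesis failure (4.46 ± 1.23) and control (1.30 ± 0.193). Of the neighbours in this order, MDA-MB-231 slippage and cytokinesis failure overlapped, and the other neighbours did not. Among doubled populations the order was the same in both lines: fusion exceeded slippage by 1.2 in HCC1806 and 1.75 in MDA-MB-231 (log2), and slippage exceeded cytokinesis failure by 1.27 ± 0.097 and 0.38 ± 0.30. The change against control, HCC1806 minus MDA-MB-231, was -3.63 ± 0.32 for fusion, -3.07 ± 0.41 for slippage and -3.96 ± 0.45 for cytokinesis failure. Even the highest MDA-MB-231 library, at 20.3 CPM, stayed below the lowest HCC1806 library at 39.9 CPM.

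**Figure D1:**
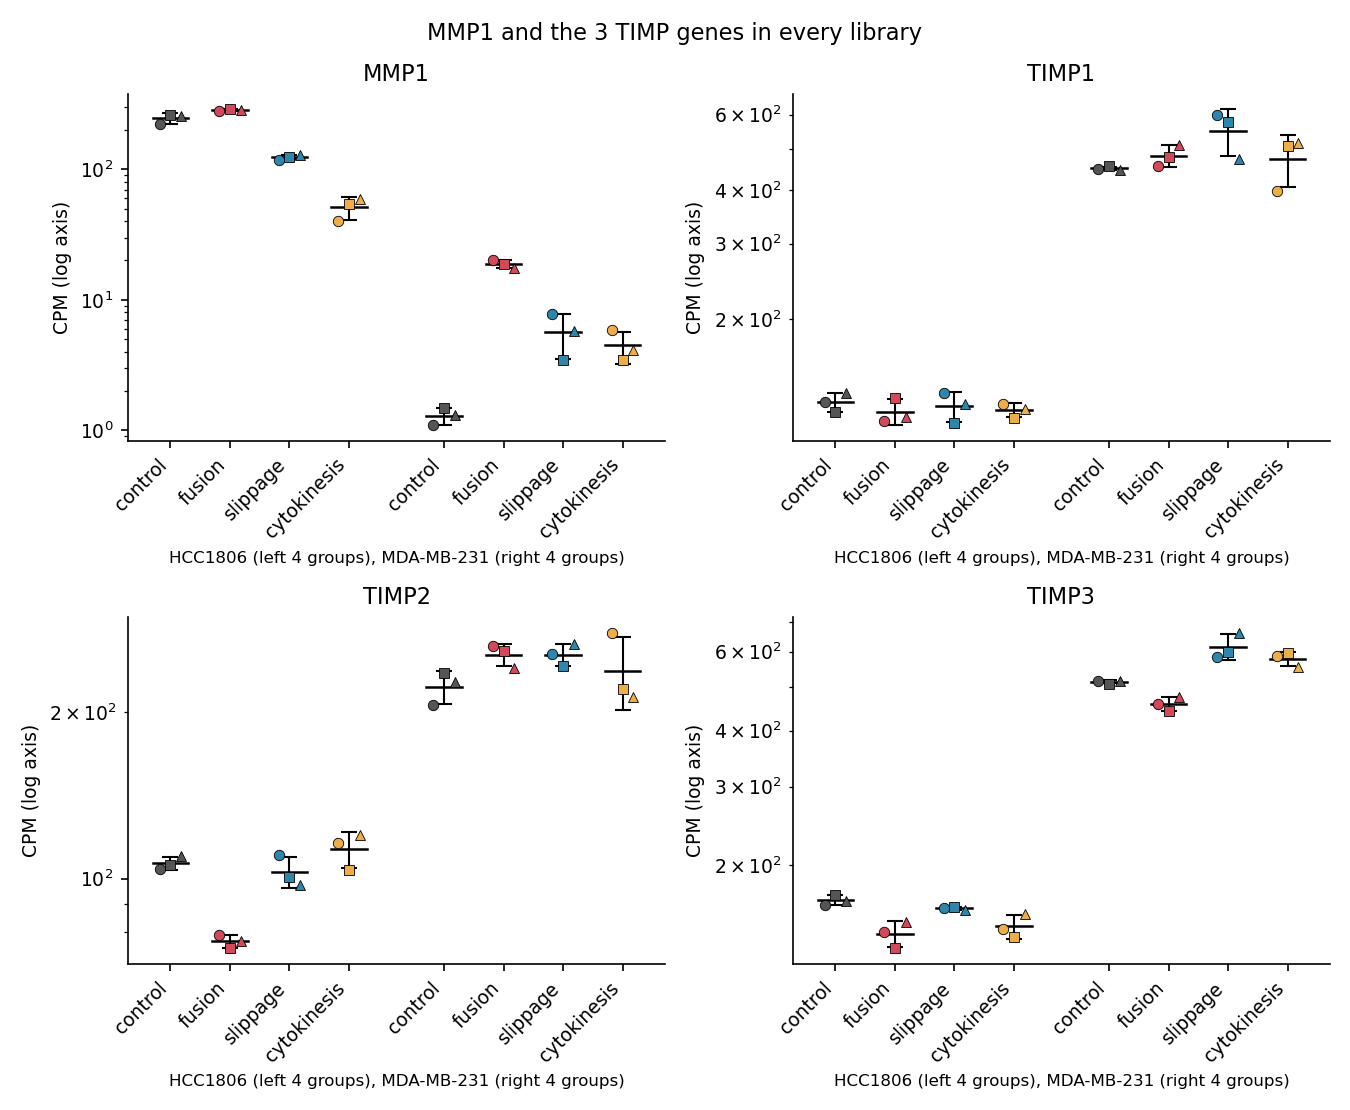
Level of MMP1 and the 3 TIMPs in each library (CPM, logarithmic axis) for both lines and the 4 groups, with circles, squares and triangles for replicates 1, 2 and 3 and a line with bars for the mean ± SD. MMP1 covers the range from 1.10 to 288 CPM, whereas each TIMP keeps to a narrow band within a line and lies higher in MDA-MB-231.

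MMP2, a gelatinase of basement membrane collagen, was read at low counts in HCC1806 and at most once in any MDA-MB-231 library. The replicates held 15, 13 and 27 counts in control, 25, 22 and 18 in fusion, 12, 12 and 13 in slippage and 16, 13 and 8 in cytokinesis failure. Fusion lay above slippage and cytokinesis failure without overlap, in counts and in CPM. Control overlapped every doubled group in counts, but in CPM (4.27, 4.50 and 7.27) it lay above slippage (at most 3.97) and cytokinesis failure (at most 4.17). No change against control was called, with -0.73 ± 0.32 in cytokinesis failure (edgeR adjusted p = 0.104).

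MMP10, a stromelysin next to MMP1 on the chromosome, held 7, 6 and 16 counts in HCC1806 control, 10, 8 and 12 in fusion, 2, 4 and 9 in slippage and 7, 3 and 4 in cytokinesis failure. Fusion lay above cytokinesis failure without overlap, and the other pairs of groups overlapped in counts. In CPM control (1.99, 2.08 and 4.31) lay just above cytokinesis failure (1.82, 0.814 and 1.03). The change in cytokinesis failure against control was -1.19 ± 0.49 and was not called (edgeR adjusted p = 0.0827). In MDA-MB-231 a single count was found in 12 libraries.

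MMP14, the membrane-bound activator of MMP2, was read in every library of both lines. HCC1806 libraries held 9, 11 and 7 counts in control, 14, 20 and 13 in fusion, 8, 12 and 12 in slippage and 19, 10 and 12 in cytokinesis failure. MDA-MB-231 libraries held 44, 30 and 41 in control, 43, 45 and 48 in fusion, 40, 57 and 33 in slippage and 45, 54 and 61 in cytokinesis failure. In counts, HCC1806 fusion lay above its control without overlap, and every MDA-MB-231 library exceeded every HCC1806 library. No change was called: the log2 fold change was 0.85 ± 0.36 in HCC1806 fusion (edgeR adjusted p = 0.129) and 0.53 ± 0.19 in MDA-MB-231 cytokinesis failure (edgeR adjusted p = 0.106).

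The stromelysin MMP3, the matrilysin MMP7 and the gelatinase MMP9 held 11, 6 and 12 counts in total over the 24 libraries, with at most 2 in any library. They were not tested, and differences between groups were not detectable at this depth.

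**Figure D2:**
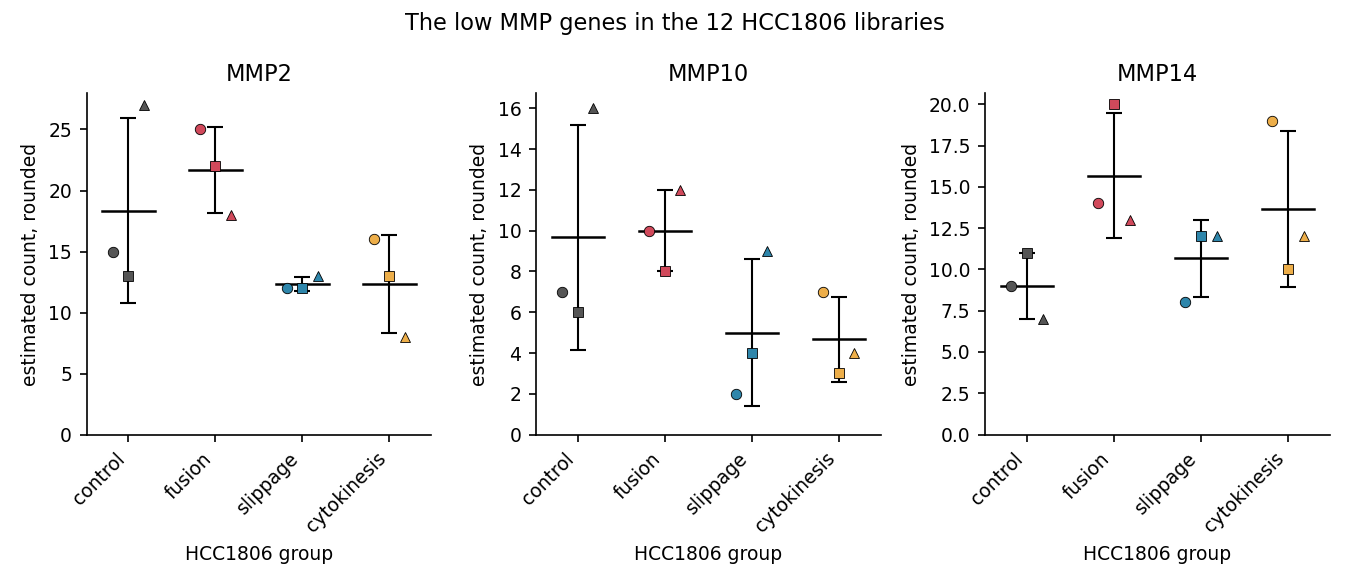
Counts of MMP2, MMP10 and MMP14 in the 12 HCC1806 libraries (linear axis), with symbols for replicates and a line with bars for the mean ± SD of 3. MMP2 and MMP10 of the cytokinesis failure population lie below those of fusion, and no library exceeds 27 counts.

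TIMP3, the inhibitor that binds to the matrix and also blocks ADAM proteases, was lower in the fusion populations of both lines, and in cytokinesis failure it was lower in HCC1806 and higher in MDA-MB-231. In HCC1806 it stood at 163, 172 and 167 CPM in control, 142, 131 and 150 in fusion, 161, 162 and 159 in slippage and 144, 138 and 156 in cytokinesis failure. In MDA-MB-231 it stood at 517, 509 and 517 CPM in control, 459, 441 and 475 in fusion, 582, 600 and 661 in slippage and 586, 595 and 555 in cytokinesis failure. No doubled group overlapped its control: MDA-MB-231 slippage and cytokinesis failure lay above it, MDA-MB-231 fusion and the HCC1806 groups below it, and HCC1806 slippage by the least.

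TIMP2, which both inhibits MMPs and takes part in the activation of MMP2, was lower in HCC1806 fusion than in any other HCC1806 group. Its levels were 104, 106 and 110 CPM in control, 79.3, 74.9 and 77.0 in fusion, 110, 101 and 97.5 in slippage and 116, 104 and 120 in cytokinesis failure. In MDA-MB-231 they were 205, 235 and 226 CPM in control, 263, 258 and 241 in fusion, 255, 242 and 265 in slippage and 278, 220 and 213 in cytokinesis failure. HCC1806 fusion did not overlap any other group of its line, and MDA-MB-231 fusion and slippage lay above their control.

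TIMP1, a secreted inhibitor of most MMPs, had 128, 122 and 135 CPM in HCC1806 control, 115, 131 and 118 in fusion, 135, 114 and 126 in slippage and 127, 118 and 123 in cytokinesis failure. In MDA-MB-231 it had 447, 455 and 447 CPM in control, 454, 477 and 511 in fusion, 600, 576 and 472 in slippage and 398, 507 and 515 in cytokinesis failure. The HCC1806 groups all overlapped, and in MDA-MB-231 the low libraries of slippage (472 CPM) and cytokinesis failure (398 CPM) were the same 2 that stood apart from their groups.

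Against control, with edgeR's quasi-likelihood test and Benjamini-Hochberg adjustment over all genes, the calls fell on TIMP2 and TIMP3. In HCC1806 fusion 2 of the 6 members tested besides MMP1 were called, where 10.9% of all genes tested were: TIMP2 fell by 0.47 (log2 -0.47 ± 0.073, edgeR adjusted p = 5.47e-07) and TIMP3 fell by 0.25 (log2 -0.25 ± 0.061, edgeR adjusted p = 0.00222, or 0.0508 without fusion replicate 2). In HCC1806 slippage 0 of 6 were called (background 3.33%), and none reached an unadjusted p under 0.05, the lowest being 0.0705 for MMP10. DESeq2 also called none there. In HCC1806 cytokinesis failure 1 of 6 was called (background 17.0%), TIMP3 with -0.19 ± 0.059 (edgeR adjusted p = 0.0145). That call was lost without control replicate 2 (0.0629), cytokinesis failure replicate 1 (0.0652) or replicate 2 (0.106), and with DESeq2 (adjusted p = 0.0781) and limma on TPM.

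In MDA-MB-231 1 of 4 members besides MMP1 was called in each doubled population, each time TIMP3. In fusion TIMP3 fell by 0.16 (log2 -0.16 ± 0.050, edgeR adjusted p = 0.0196), where 17.4% of all genes were called, and leaving out any control library, or fusion replicate 1 or 2, ended the call (adjusted p between 0.0577 and 0.125), as did DESeq2 (0.0597). In slippage it rose by 0.26 ± 0.049 (edgeR adjusted p = 0.000354, background 6.18%), and no single library ended that call, while limma on TPM did (adjusted p = 0.113 and 0.115 with pseudocounts of 1 and 0.1). In cytokinesis failure it rose by 0.17 ± 0.049 (edgeR adjusted p = 0.0297, background 4.64%), and leaving out any control library, or cytokinesis failure replicate 2, ended the call (adjusted p between 0.0954 and 0.151), as did DESeq2 (0.0646) and limma on TPM.

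TIMP1 was not called against control in any doubled population. In MDA-MB-231 slippage its change was 0.30 ± 0.11 (edgeR adjusted p = 0.170), and without slippage replicate 3 it was 0.39 and called (adjusted p = 0.00670). Without that library and cytokinesis failure replicate 1, TIMP1 was called higher in slippage (0.39, edgeR adjusted p = 6.09e-10) and in cytokinesis failure (0.18, edgeR adjusted p = 0.00688). TIMP2 of MDA-MB-231 was not called in fusion (0.19 ± 0.081, edgeR adjusted p = 0.110) or slippage (0.20 ± 0.081, edgeR adjusted p = 0.173), but with no filter on low counts it was called in both (0.0153 and 0.0329), as was TIMP1 in slippage (0.0106). With edgeR on the compared libraries alone TIMP2 was also called in both (adjusted p = 0.00441 and 0.0224). Without both noisier libraries edgeR called it in fusion (adjusted p = 0.00412). No other setting called TIMP2 in these comparisons. A p that misses the threshold does not show that levels were alike.

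**Figure D3:**
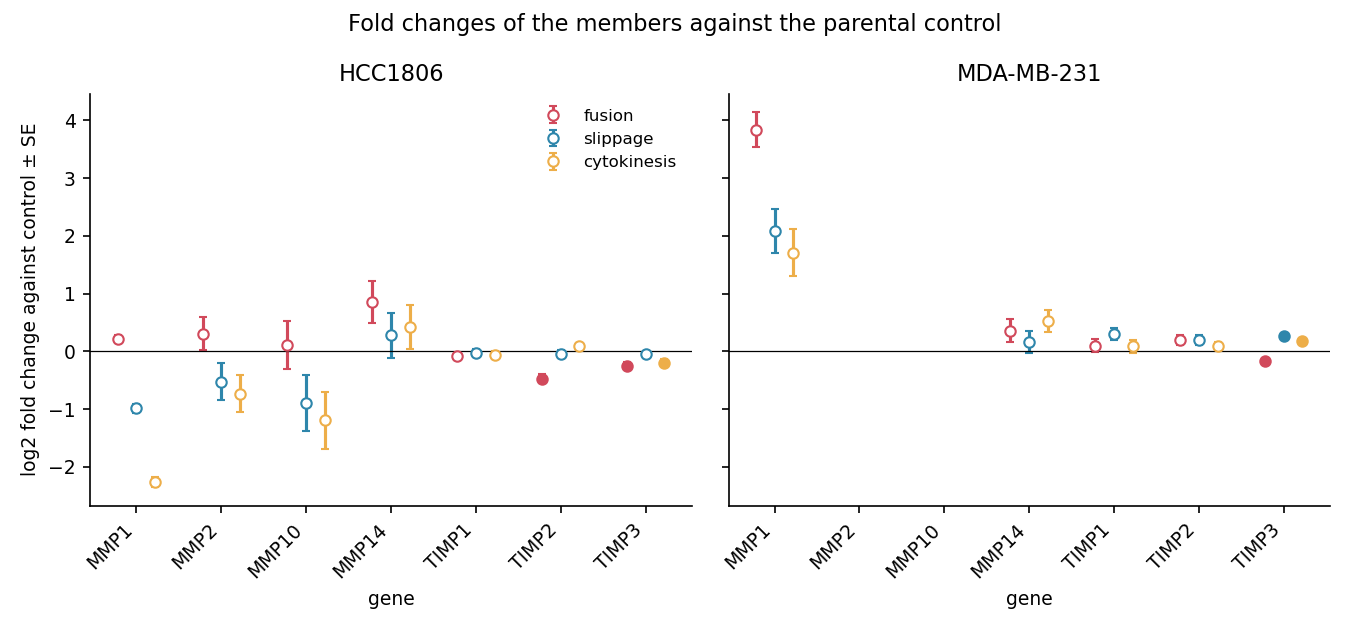
Log2 fold change against control of the tested members in the 3 doubled populations of each line (bars, ± SE), with filled symbols for edgeR adjusted p below 0.05, open symbols for members not called and MMP1 shown without a test. MMP1 spans -2.26 to 3.84, while no TIMP moves by more than 0.47 in either direction.

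Between doubled populations, fusion had the lower TIMP2 in HCC1806 and the lower TIMP3 in MDA-MB-231. In HCC1806 fusion against slippage, 2 of 6 members were called (background 9.23%): TIMP2 with -0.42 ± 0.073 (edgeR adjusted p = 9.57e-06) and TIMP3 with -0.20 ± 0.062 (edgeR adjusted p = 0.0277), the latter ended by leaving out any slippage library, or fusion replicate 1 or 2 (adjusted p between 0.0607 and 0.225). In HCC1806 fusion against cytokinesis failure, 3 of 6 were called (background 17.9%). TIMP2 was lower in fusion (-0.56 ± 0.071, edgeR adjusted p = 7.86e-10), and both low-count MMPs were higher, MMP2 by 1.04 ± 0.31 (edgeR adjusted p = 0.0101) and MMP10 by 1.31 ± 0.49 (edgeR adjusted p = 0.0486). The MMP2 call was lost without fusion replicate 1 (0.0627) or cytokinesis failure replicate 3 (0.0975). The MMP10 call was lost without any fusion replicate or cytokinesis failure replicate 2 or 3 (0.0577 to 0.186), and DESeq2 called neither (adjusted p = 0.0806 and 0.195). In HCC1806 slippage against cytokinesis failure 0 of 6 were called by edgeR (background 6.80%), and 2 had an unadjusted p under 0.05, TIMP3 (0.0227) and TIMP2 (0.0486). DESeq2 called none of them.

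In MDA-MB-231 1 of 4 members was called in fusion against slippage (background 17.1%) and 1 of 4 in fusion against cytokinesis failure (background 24.5%). Both were TIMP3, lower in fusion by -0.43 ± 0.050 (edgeR adjusted p = 1.94e-08) and -0.34 ± 0.050 (edgeR adjusted p = 1.76e-06) on the log2 scale. In slippage against cytokinesis failure 0 of 4 were called by edgeR (background 3.18%), none with an unadjusted p under 0.05, the lowest being 0.0519 for MMP14, and DESeq2 called none. Fusion was the doubled population with the highest MMP1 and the lowest mean TIMP3 in both lines, but with the lowest TIMP2 in HCC1806 only. In HCC1806 its TIMP3 libraries overlapped those of cytokinesis failure. Mean TIMP2 in MDA-MB-231 was lowest for cytokinesis failure (237 CPM), below fusion (253.8 CPM) and slippage (253.9 CPM), with no call. With all libraries, edgeR did not call TIMP1 between doubled populations in either line. Without slippage replicate 3 or cytokinesis failure replicate 1, 2 members instead of 1 were called in the comparison of fusion with the group concerned, and 1 instead of 0 between those groups. These comparisons share libraries with those against control.

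Between the lines, edgeR called a difference in the change of TIMP2 for fusion and of TIMP3 for slippage and cytokinesis failure. Limma on TPM did not call the TIMP3 differences, and with all libraries edgeR called TIMP1 for no route. In the fit over all 24 libraries the fusion effect on TIMP2 was lower in HCC1806 than in MDA-MB-231 by -0.67 ± 0.11 on the log2 scale (edgeR adjusted p = 9.94e-06), the 1 of 6 members called where 12% of all genes were. The 6 include MMP2 and MMP10, which entered this fit only through HCC1806. They had 2 and 1 counts in total over the 12 MDA-MB-231 libraries, so a line difference in them could not be detected. For slippage 1 of 6 was called (background 3.54%, or 2 of 6 without MDA-MB-231 slippage replicate 3), TIMP3 with -0.32 ± 0.075 (edgeR adjusted p = 0.00470). For cytokinesis failure 1 of 6 was called (background 6.53%), again TIMP3 with -0.36 ± 0.075 (edgeR adjusted p = 0.000405). These are the routes in which MMP1, on whose fold changes the list was selected, went opposite ways. For both genes the change against control was lower in HCC1806 there, while the MMP1 level itself was higher in HCC1806. A link between the changes of MMP1 and TIMP3 was not tested.

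Between the parental lines 76.2% of all genes tested were called, so the calls of all 6 members tested besides MMP1 are close to that background, and MMP2 and MMP10 could be tested only through HCC1806. MMP1 had 174 times as many counts in HCC1806 for the same total. This is a description, because these controls entered the fold changes on which the list was selected. MMP2 had 55 counts against 1, a ratio of 54.0 (exact 95% interval 9.29 to 2170, counting error only). MMP10 had 29 against 0, at least 9.49-fold higher at a floor of 3 counts over the group. The other members were higher in MDA-MB-231: MMP14 by 1.97 ± 0.28 (log2 -1.97, HCC1806 minus MDA-MB-231), TIMP1 by 1.81 ± 0.10 (-1.81), TIMP2 by 1.06 ± 0.074 (-1.06) and TIMP3 by 1.62 ± 0.053 (-1.62). The parental MDA-MB-231 line thus had the inhibitors and MMP14 at higher levels and the secreted MMP1, MMP2 and MMP10 at or near 0.

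To set inhibitors beside enzymes, the summed TPM of the 3 TIMPs was divided by that of the 7 MMPs in each library. In HCC1806 the ratio was 1.85, 1.53 and 1.68 in control, 1.29, 1.37 and 1.30 in fusion, 3.61, 2.96 and 3.09 in slippage and 8.99, 6.60 and 6.47 in cytokinesis failure. In MDA-MB-231 it was 184, 238 and 211 in control, 50.3, 56.6 and 60.3 in fusion, 130, 158 and 142 in slippage and 90.3, 151 and 136 in cytokinesis failure. Every HCC1806 fusion library lay below its controls and every slippage and cytokinesis failure library above them, while all 9 doubled MDA-MB-231 libraries lay below theirs on this scale. The group means were 1.69 ± 0.163, 1.32 ± 0.044, 3.22 ± 0.345 and 7.36 ± 1.42 in HCC1806 and 211 ± 26.9, 55.7 ± 5.02, 144 ± 13.7 and 126 ± 31.7 in MDA-MB-231 (SD, n = 3), in the order control, fusion, slippage and cytokinesis failure.

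MMP1 made up 96.8%, 96.7%, 95.5% and 90.2% of the MMP sum in the HCC1806 groups and 19.9%, 71.7%, 46.8% and 35.5% in the MDA-MB-231 groups, in the same order. The ratio holds MMP1 and is therefore a description, with no test. In MDA-MB-231, where MMP14 and the TIMPs also weigh on it, slippage had both a higher mean MMP1 and a higher mean ratio than cytokinesis failure. The libraries of these groups overlapped in both measures. The lowest ratio of the 2 groups (90.3) was that of cytokinesis failure replicate 1, which differed more from its group than other libraries did. TPM divides by transcript length although 3′ tags come from 1 end, and on summed counts the mean ratios were 1.57, 1.13, 2.93 and 6.48 in HCC1806 and 99.9, 35.9, 80.7 and 65.7 in MDA-MB-231, in the same rank order. On counts, however, MDA-MB-231 slippage replicate 3 (90.6) lay above control replicate 1 (85.0), so slippage and control overlapped.

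**Figure D4:**
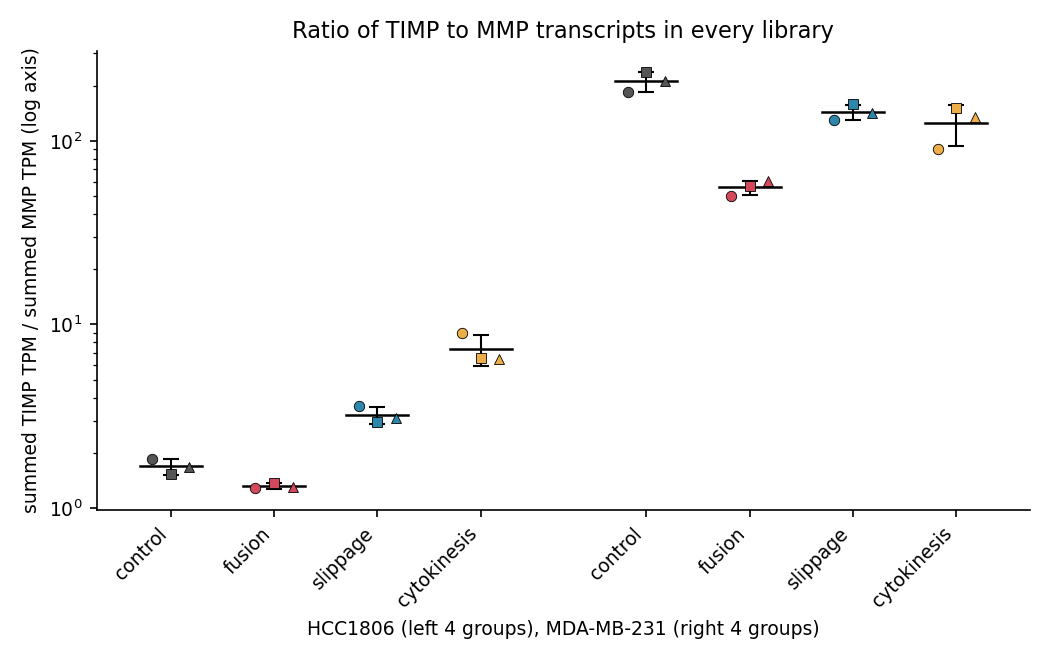
Summed TPM of TIMP1, TIMP2 and TIMP3 divided by the summed TPM of the 7 MMPs in each library (logarithmic axis), with symbols for replicates and a line with bars for the mean ± SD. HCC1806 runs from 1.29 to 8.99 with cytokinesis failure highest, and MDA-MB-231 runs from 50.3 to 238 with control highest.

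The genes of plasminogen activation, whose product plasmin cleaves proMMPs, were called in 1 direction in HCC1806 and mostly in the other in MDA-MB-231. Of 8 genes tested in HCC1806, the number lower was 3 for fusion, 4 for slippage and 6 for cytokinesis failure, and none was higher. The share of all genes called in either direction was 10.9%, 3.33% and 17.0%. The urokinase gene PLAU fell in all 3 (-0.35, -0.75 and -0.97), as did the plasminogen activator inhibitor SERPINB2 (-0.34, -0.74 and -2.44), and the serpin SERPINE2 was among the first 3 in slippage (-0.65) and cytokinesis failure (-1.06). The fusion calls of PLAU and SERPINB2 were each lost when any of 4 of 6 libraries was left out, control replicates 1 and 2 and fusion replicate 1 among them for both (adjusted p from 0.0619 to 0.135 and from 0.0815 to 0.350), and the slippage call of SERPINE2 was lost without slippage replicate 3 (0.0599).

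Of 7 plasminogen genes tested in MDA-MB-231, the number higher was 4 for fusion, 5 for slippage and 2 for cytokinesis failure, where 1 was lower, beside 17.4%, 6.18% and 4.64% of all genes called. In the test of the difference between the lines, 12%, 3.54% and 6.53% of all genes were called for these routes. Of 8 plasminogen genes in that test, 5, 6 and 4 had a lower effect in HCC1806 for these routes and none a higher one. The tissue activator PLAT rose in all 3 (0.60, 0.74 and 0.30), SERPINE2 rose in fusion (0.76) and slippage (0.60), S100A10, part of a cell-surface plasminogen receptor, rose in slippage (0.22) and the urokinase receptor PLAUR rose in cytokinesis failure (0.44). PLAU fell there (-0.19), a call lost when any of 5 of 6 libraries was left out, all but cytokinesis failure replicate 1 (adjusted p from 0.0558 to 0.140), and the PLAT call was lost without control replicate 1 or cytokinesis failure replicate 2 or 3 (0.0741 to 0.0833). The median of the list was -0.31, -0.52 and -0.80 in HCC1806 and 0.15, 0.22 and 0.11 in MDA-MB-231 for fusion, slippage and cytokinesis failure, while the median over all genes tested was between -0.01 and 0.01 in each.

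Of 12 AP-1 and ETS factors, which bind MMP promoters, 7 were lower and 2 higher in HCC1806 cytokinesis failure (background 17.0%). The AP-1 subunit FOSL1 fell by 1.12 there (-1.12 ± 0.081, edgeR adjusted p = 1.20e-20), JUN fell by 0.55 (log2 -0.55), and the epithelial ETS factor ELF3 rose by 1.01. In fusion (background 10.9%) 2 were higher, ELF3 (0.77) and JUND (0.38), and 2 lower, FOSL1 (-0.23) among them, and in slippage (background 3.33%) ELF3 was higher (0.42) and FOSL1 lower (-0.27). Leaving out control replicate 2, control replicate 3, fusion replicate 1 or fusion replicate 3 ended the FOSL1 call in fusion (0.0567 to 0.233). Leaving out control replicate 3, slippage replicate 2 or slippage replicate 3 ended it in slippage (0.0777 to 0.168), and control replicate 1 or slippage replicate 3 the ELF3 call there (0.0599 to 0.0794). In MDA-MB-231 none of 14 was lower and 5, 2 and 3 were higher in fusion, slippage and cytokinesis failure, beside backgrounds of 17.4%, 6.18% and 4.64%. These included ETV1 in all 3 (0.34, 0.40 and 0.56), ETS1 in fusion (0.56), JUN in fusion (0.39) and cytokinesis failure (0.28) and JUND in slippage (0.22) and cytokinesis failure (0.31). JUND in slippage was lost without any library but slippage replicate 3 (0.0575 to 0.140), and JUN in cytokinesis failure without control replicate 1 or cytokinesis failure replicate 2 (0.0717 to 0.0811). List medians were -0.16, -0.13 and -0.37 in HCC1806 and 0.19, 0.17 and 0.12 in MDA-MB-231.

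Of 7 cytokines and growth factors known to induce MMP genes, 3, 3 and 6 were called lower in HCC1806 fusion, slippage and cytokinesis failure, and 1, TGFB2 (0.73), higher in the last, where 10.9%, 3.33% and 17.0% of all genes were called in either direction. The epidermal growth factor receptor ligands led the list, AREG with -0.46, -0.46 and -1.21, EREG with -0.64 in fusion and -1.03 in cytokinesis failure, TGFA with -0.44 and -0.60 in the same 2 and HBEGF with -0.67 in slippage, where the cytokine IL1A changed by -0.94. Leaving out control replicate 1 or slippage replicate 3 ended the HBEGF call (0.104 and 0.142), and control replicate 2 or slippage replicate 3 the IL1A call (0.0533 to 0.0636). In MDA-MB-231 fusion 3 of 7 were lower, EREG (-1.43 ± 0.12, edgeR adjusted p = 6.79e-12), TGFB2 (-0.38) and HBEGF (-0.27, lost without fusion replicate 1 at 0.110), beside a background of 17.4%. Of the 7, only AREG was called in slippage (background 6.18%), higher by 0.27, until control replicate 1, control replicate 3 or slippage replicate 2 was left out (0.0503 to 0.0626). In cytokinesis failure (background 4.64%) TGFB2 was lower (-0.53) and EREG higher (0.40, lost without control replicate 2 or cytokinesis failure replicate 2, 0.0526 to 0.127). List medians were -0.28, -0.46 and -0.94 in HCC1806 and -0.27, -0.04 and -0.20 in MDA-MB-231.

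Among matrix proteins that MMPs cut, 6, 4 and 5 of 12 were lower in HCC1806 fusion, slippage and cytokinesis failure, and 3 were higher in the last (background 10.9%, 3.33% and 17.0%). LAMB3, a laminin chain of the epithelial basement membrane, fell in all 3 (log2 -0.49, -0.50 and -1.06). COL17A1, a collagen of hemidesmosomes, was lower in slippage (-0.38) and cytokinesis failure (-0.59), and tenascin C (TNC) in fusion (-2.53 ± 0.36, edgeR adjusted p = 7.00e-08). TNC was called higher in HCC1806 cytokinesis failure (0.92) and in MDA-MB-231 fusion (1.31) and slippage (1.18), values picked out after they were seen. In MDA-MB-231 fusion 5 of 11 were lower and 3 higher (background 17.4%), with fibronectin (FN1, -0.74) and the collagen COL4A1 (-1.19) lower and LAMB3 higher (0.53). Higher were 7 of 11 in slippage (background 6.18%) and 3 of 11 in cytokinesis failure (background 4.64%), with none lower, FN1 (0.59 and 0.80) and COL6A1 (0.48 and 0.43) leading both, followed by TNC in cytokinesis failure (0.84, a call that ended without control replicate 2, control replicate 3, cytokinesis failure replicate 1 or cytokinesis failure replicate 3, 0.0513 to 0.265). The list medians were -0.24, -0.15 and -0.01 in HCC1806 and -0.15, 0.40 and 0.25 in MDA-MB-231.

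Of other MMP inhibitors and activators, 3, 1 and 3 of 7 were called in HCC1806 fusion, slippage and cytokinesis failure (background 10.9%, 3.33% and 17.0%) and 1, 2 and 1 of 6 in MDA-MB-231 (background 17.4%, 6.18% and 4.64%). Basigin (BSG), a surface protein known to induce MMPs, was higher in the HCC1806 doubled populations (0.26, 0.22 and 0.23), although leaving out control replicate 1, control replicate 2, slippage replicate 2 or slippage replicate 3 ended the slippage call (0.0599 to 0.0837). The proteoglycan SPOCK1 was lower in HCC1806 fusion (-1.10 ± 0.10, edgeR adjusted p = 8.09e-15) and higher in MDA-MB-231 fusion (1.37), the latter lost without control replicate 2 or fusion replicate 1 (0.0648 to 0.0968). Of the proprotein convertases PCSK5 and FURIN, which can activate MMP14, PCSK5 was lower in HCC1806 fusion (-0.85, lost without control replicate 3 at 0.0824). FURIN was lower in HCC1806 cytokinesis failure (-0.42, lost without cytokinesis failure replicate 3 at 0.0529). The serine protease inhibitor TFPI2 was lower in HCC1806 cytokinesis failure (-0.63) and higher in MDA-MB-231 slippage (0.67) and cytokinesis failure (0.48, lost without control replicate 1 or cytokinesis failure replicate 2, 0.0764 to 0.137), and SPOCK3 was higher in MDA-MB-231 slippage (1.64, lost without control replicate 3 or slippage replicate 3 at 0.0572). Medians were -0.02, -0.07 and 0.12 in HCC1806 and 0.01, 0.61 and 0.57 in MDA-MB-231.

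ADAM and ADAMTS proteases, relatives of the MMPs of which many are blocked by TIMP3, had 0, 1 and 2 of 10 called in HCC1806 (background 10.9%, 3.33% and 17.0%), all lower: ADAM8 in slippage (-1.02) and cytokinesis failure (-1.42 ± 0.29, edgeR adjusted p = 0.000137) and ADAM12 in cytokinesis failure (-0.72). In MDA-MB-231 3, 2 and 3 of 10 were called, where 17.4%, 6.18% and 4.64% of all genes were. ADAM8 was higher in slippage (0.39) and cytokinesis failure (0.35), ADAM19 in cytokinesis failure (0.34) and ADAM9 in fusion (0.27), while ADAMTS15 was lower in fusion (-0.44) and ADAMTS9 was lower in fusion (-1.30) and higher in slippage (1.19) and cytokinesis failure (0.99). Leaving out 1 library ended the calls of ADAM8 in HCC1806 slippage (control replicate 1, slippage replicate 1 or 3, 0.0541 to 0.275), ADAM12 (control replicate 3, cytokinesis failure replicate 2 or 3, 0.0535 to 0.205), ADAM9 (fusion replicate 2, 0.0565) and ADAMTS15 (control replicate 1, fusion replicate 3, 0.0501 to 0.116). It also ended those of ADAM19 (control replicate 1 or 3, cytokinesis failure replicate 1 or 3, 0.0508 to 0.179), ADAMTS9 in fusion (control replicate 3, fusion replicate 1, 0.0547 to 0.0737) and ADAMTS9 in cytokinesis failure (control replicate 1 or 2, cytokinesis failure replicate 2 or 3, 0.0540 to 0.146). Of 16 further MMP genes only 4 could be tested in HCC1806 and 3 in MDA-MB-231. MMP11 was called higher in MDA-MB-231 cytokinesis failure (1.68 ± 0.51, edgeR adjusted p = 0.0449), with 2 to 4 counts in control libraries and 4 to 14 in doubled ones. Leaving out any control library, or cytokinesis failure replicate 3, ended that call (0.0900 to 0.197).

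**Figure D5:**
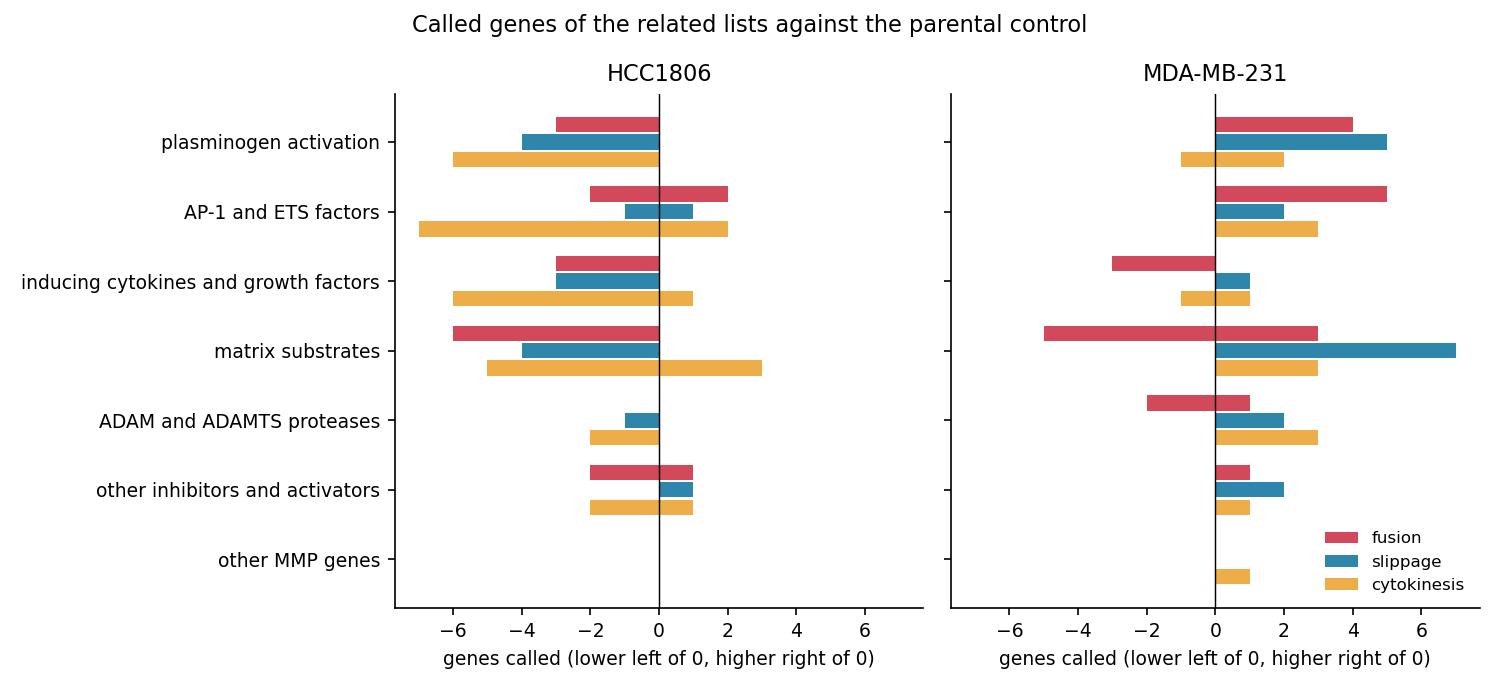
Number of genes called lower (to the left) and higher (to the right) against control at edgeR adjusted p below 0.05 in 7 gene lists related to MMP function, for each doubled population of each line. Plasminogen activation genes lie on the lower side in HCC1806 (3, 4 and 6 of 8) and mainly on the higher side in MDA-MB-231 (4, 5 and 2 of 7).

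The genes whose level ran most like that of MMP1 over the 24 libraries were sought by Pearson's r of log2 CPM centred on the mean of each line, among 9666 genes tested in both lines. The highest were NAMPT (r = 0.93), an enzyme of NAD synthesis, FEZ2 (0.90), the chromatin protein gene HMGA1 (0.88), the epithelial ETS factor EHF (0.86) and the proteoglycan SRGN (0.86). Within HCC1806 alone they had r = 0.97, 0.96, 0.97, 0.89 and 0.87 and within MDA-MB-231 0.90, 0.86, 0.83, 0.94 and 0.94, over 12 libraries each, which share the group structure. The lowest were PLEKHA7 (-0.90), SLC44A2 (-0.87), CLU (-0.86), SNX5 (-0.85) and ISYNA1 (-0.85). NAMPT changed against control by 0.02, -0.24 and -0.43 in HCC1806 and by 0.53, 0.29 and 0.33 in MDA-MB-231 for fusion, slippage and cytokinesis failure, with the first of these not called.

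Among the members within HCC1806, r over 12 libraries was 0.74 between MMP1 and MMP2, 0.66 between MMP1 and MMP10 and 0.78 between MMP2 and MMP10. The last 2 genes rest on few counts, and the libraries share the same scaling. MMP1 and TIMP2 had r = -0.65 in HCC1806 and 0.63 in MDA-MB-231, whereas r of MMP1 with TIMP1 was 0.06 and 0.16 and with TIMP3 0.16 and -0.38 in the 2 lines.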

How the data were processed

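Per the labels' protocols, 200000 cells per well were grown for 48 hours, and TAGseq libraries, which read the 3′ end of transcripts, were sequenced as single reads of 100 bp. STAR and Salmon are named without versions, with build GRCh38, per the submitters' processing notes; the annotation, the strand setting and any use of molecular identifiers are not given in the sources used here. The authors deposited estimated counts per gene and, as a further table, TPM per gene, which divide by length. Of the estimated counts, 4.41% were not whole, and all were rounded. Columns of unlabelled samples numbered 0. Low-pass genome sequencing was not analysed here.

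In R 4.3.3, edgeR 4.0.16 (filterByExpr, TMM, robust quasi-likelihood tests) was fitted to the 12 libraries of each line, and to all 24 for line differences and the parental comparison. Benjamini-Hochberg adjusted p below 0.05 over all genes was a call. The SE is the size of the log2 fold change divided by the square root of F. Nothing states that replicates came from separately derived populations, so p-values measure the spread between these samples. Alternatives used limma 3.58.1 on log2(TPM + 1) and log2(TPM + 0.1), DESeq2 1.42.0, other size factors and filters, a replicate block and single libraries left out. Scripts were tested on simulated data. In each list the up to 3 called genes with the smallest adjusted p were named (some are not reported here), and the 5 most and 5 least alike to MMP1 (prior count 2, mean log2 CPM of at least 2). The members and lists were chosen with earlier results of these data known. Depth limits genes with few counts, and intervals cover counting error only. Sequences are from RefSeq and the reference annotation of GRCh38.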

Additional observations from a re-analysis of the deposited data

Results flagged for a closer look

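For 3 changes in inhibitor genes the lines differed by a test of the difference itself, in the edgeR fit over all 24 libraries (3 per group). For TIMP2 the fusion effect differed by -0.67 on the log2 scale (HCC1806 minus MDA-MB-231, edgeR adjusted p = 9.94e-06): it was -0.47 in HCC1806, where all 3 fusion libraries lay below all 3 controls, and 0.19 in MDA-MB-231, where all 3 lay above. For TIMP3 the slippage effect differed by -0.32 (edgeR adjusted p = 0.00470), with -0.05 in HCC1806 and 0.26 in MDA-MB-231. The cytokinesis failure effect on TIMP3 differed by -0.36 (edgeR adjusted p = 0.000405), with -0.19 in HCC1806 and 0.17 in MDA-MB-231, and the libraries of both lines lay on opposite sides of their controls. No single library ended any of these 3 calls when left out. Limma on TPM, with pseudocounts of 1 and 0.1, ended both TIMP3 calls (adjusted p = 0.104 and 0.116 for slippage, 0.0606 and 0.0673 for cytokinesis failure) and not the TIMP2 call. Groups of 3 are too small to test for an outlying library.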

How the results depend on the processing

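The direction of MMP1 was the same under every alternative in each of the 6 comparisons with control. The size of its rise in MDA-MB-231 was not: on limma with log2(TPM + 1) it was 2.63 for fusion, 1.2 for slippage and 0.97 for cytokinesis failure, and with log2(TPM + 0.1) 3.58 for fusion. The MMP1 line differences were -2.46, -2.21 and -3.15 with log2(TPM + 1) and -3.41 for fusion with log2(TPM + 0.1), where the pseudocount by its construction shrinks low genes, and leaving out single libraries gave -3.35 to -2.77 for slippage. Of the members called besides MMP1, DESeq2 gave 0 instead of 1 in HCC1806 cytokinesis failure, MDA-MB-231 fusion and MDA-MB-231 cytokinesis failure, 1 instead of 2 in HCC1806 fusion against slippage and 1 instead of 3 in HCC1806 fusion against cytokinesis failure. Limma on TPM, with either pseudocount, gave 0 instead of 1 in HCC1806 cytokinesis failure, in MDA-MB-231 slippage and cytokinesis failure and in the line differences of slippage and cytokinesis failure, and 1 instead of 2 in HCC1806 fusion against slippage. With no filter on low counts there were 2 in MDA-MB-231 fusion, 3 in MDA-MB-231 slippage and 2 in the slippage line difference, and with the compared libraries alone 2 in MDA-MB-231 fusion and slippage. Without both noisier libraries, an alternative chosen after seeing the data, there were 2 in each MDA-MB-231 comparison with control, in fusion against slippage and against cytokinesis failure and in the line differences of slippage and cytokinesis failure, and 1 in slippage against cytokinesis failure. The cause of these shifts was not tested. TIMP1 in MDA-MB-231 fusion was -0.021 with both TPM settings, and TIMP2 in MDA-MB-231 cytokinesis failure was -0.040 without the noisier libraries. Leaving out 1 library at a time, the members called ranged from 1 to 2 in HCC1806 fusion, MDA-MB-231 slippage, HCC1806 fusion against slippage, MDA-MB-231 fusion against slippage and against cytokinesis failure and the slippage line difference, from 0 to 1 in HCC1806 cytokinesis failure, MDA-MB-231 fusion, MDA-MB-231 cytokinesis failure and MDA-MB-231 slippage against cytokinesis failure, and from 1 to 3 in HCC1806 fusion against cytokinesis failure. Single fold changes near 0 changed sign that way: MMP10 in HCC1806 fusion (-0.095 to 0.60), TIMP1 in HCC1806 slippage (-0.090 to 0.024), MMP14 in MDA-MB-231 slippage (-0.0013 to 0.29) and TIMP2 in MDA-MB-231 cytokinesis failure (-0.037 to 0.16). None of the genes named from lists changed sign. Counted once per gene, comparison and setting, their calls were lost 96 times and kept 665 times in settings on whole groups. Without 1 library they were lost 82 times and kept 457 times. Over all genes, DESeq2 called 648, 142, 975, 1197, 343 and 302 genes in the comparisons with control, against 1247, 382, 1950, 1993, 706 and 530. In MDA-MB-231 fusion limma on log2(TPM + 1) called 318 higher and 1380 lower against 1067 and 926, and there the median of all genes was -0.11. The split shifted with this setting in HCC1806 too. There it was 218 and 467 against 611 and 636 in fusion, 16 and 67 against 175 and 207 in slippage and 818 and 449 against 960 and 990 in cytokinesis failure. In MDA-MB-231 slippage and cytokinesis failure the share of higher calls hardly moved. With the replicate block the members called were 2, 0, 1, 1, 1 and 1 against control, as without it. The labels do not say whether a replicate number pairs samples. After group means were removed, same-numbered libraries had correlations of -0.097 to 0.077 in HCC1806 and -0.19 to 0.088 in MDA-MB-231. Counting error pulls such correlations towards 0, so they cannot decide whether samples were paired. The block ended the calls of MMP11 (0.0728) and TNC (0.0722) in MDA-MB-231 cytokinesis failure. With 3 libraries per group of 2455707 to 4030297 counts each, MMPs other than MMP1 rest on few counts, and small changes in them were not detectable.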

Other observations

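Neighbours of MMP1 were listed by position, chosen after values were seen. Within 1 Mb of MMP1, RefSeq places 45 genes, of which 17 were in the count table, 8 were tested in HCC1806 and 6 in MDA-MB-231. Of the 8 in HCC1806, 1 was called higher and 1 lower in fusion, none in slippage and 1 lower in cytokinesis failure (background 10.9%, 3.33% and 17.0%). Of the 6 in MDA-MB-231, 1 was called in each doubled population (background 17.4%, 6.18% and 4.64%). At edgeR adjusted p below 0.05, TMEM123 was higher in fusion of HCC1806 (log2 0.15) and MDA-MB-231 (0.16), DYNC2H1 was lower in HCC1806 fusion (-0.38), and DCUN1D5 was lower in cytokinesis failure of HCC1806 (-0.17) and MDA-MB-231 (-0.25). BIRC3, an inhibitor of apoptosis, was higher in MDA-MB-231 slippage (0.44).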
